A study of Mus musculus with 8 samples.

Results

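The 10 genes described here make melanin or build the melanosome, the organelle in which melanocytes and melanoma cells make and store it. They are Pmel, Tyr, Tyrp1, Dct, Mlana, Slc45a2, Oca2, Gpr143, Slc24a5 and Trpm1, chosen by symbol from the 28918 genes of the expression table. All 10 were in the table and all 10 passed the expression filter. The samples were subcutaneous tumors of the mouse melanoma line B16mhgp100 in C57BL/6 mice. Its name is that of a pigmented B16 line given an extra, chimeric mouse and human form of gp100, the protein of Pmel, as a target for T cells. One group of tumors over-expressed Colq, which encodes the collagen-like tail of acetylcholinesterase, and the other carried the vector. Mice of both groups were given antibody against PD-1, an inhibitory receptor of lymphocytes, in 4 doses of 200 µg, 2 a week, beginning on day 10 of tumor growth, with harvest 1 day after the final dose. No group without the antibody or without the gp100 construct was analysed here, and the labels give no promoter for the constructs and do not say whether the lines are clones. The 3 Colq tumors gave 1 library each, and the 3 Vector tumors gave 5, since tumors 1 and 2 were each sequenced as 2 portions, which were averaged before any comparison.

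Melanin synthesis starts from tyrosine. Tyrosinase (Tyr) oxidizes it to dopaquinone, and dopachrome tautomerase (Dct) and Tyrp1 act further along the path to the dark pigment eumelanin. Pmel forms the amyloid fibrils on which melanin is laid down, and Mlana (MART-1) is a small melanosomal membrane protein that takes part in Pmel processing. Slc45a2, Oca2 and Slc24a5 are transporters or channels that set the ionic and pH conditions inside the organelle. Gpr143 is a melanosomal receptor that takes part in the control of organelle size and number, and Trpm1 is a melanocytic cation channel. MITF, with SOX10, is the best known transcriptional activator of these genes, and acts at CATGTG and CACGTG motifs.

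The RefSeq promoter table (GRCm38.p6) held 7 promoters of 6 of the genes, Tyr, Tyrp1, Dct, Oca2, Slc24a5 and Trpm1, the last with 2 start sites. Pmel, Mlana, Slc45a2 and Gpr143 are not among them. Each window runs from 250 bases before the start to 50 after. The letters CATGTG, or CACATG on the other strand, were present in 7 of the 7 windows, against 14.15% of 32851 windows of the same length in the table. The longer form TCATGTG, which contains the shorter one, was present in 5 of 7, against 3.77% of all windows, and CACGTG in 1 of 7, against 7.15%. The 250 bases before the start are printed here for 4 genes whose expression differed in different ways, Tyrp1 and Slc24a5 with clear decreases, Dct with a smaller one and Tyr with a scale-dependent one, so that their matches can be compared. They are Tyrp1 (chr4:80833963-80834212, plus strand), Slc24a5 (chr2:125067877-125068126, plus strand), Dct (chr14:118052247-118052496, minus strand) and Tyr (chr7:87493513-87493762, minus strand). Capitals mark CATGTG or CACATG.
Tyrp1: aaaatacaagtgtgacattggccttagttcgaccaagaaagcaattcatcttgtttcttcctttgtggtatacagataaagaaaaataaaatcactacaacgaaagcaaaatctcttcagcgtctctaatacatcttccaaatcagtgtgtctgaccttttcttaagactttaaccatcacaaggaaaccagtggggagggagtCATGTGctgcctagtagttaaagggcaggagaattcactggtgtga
Slc24a5: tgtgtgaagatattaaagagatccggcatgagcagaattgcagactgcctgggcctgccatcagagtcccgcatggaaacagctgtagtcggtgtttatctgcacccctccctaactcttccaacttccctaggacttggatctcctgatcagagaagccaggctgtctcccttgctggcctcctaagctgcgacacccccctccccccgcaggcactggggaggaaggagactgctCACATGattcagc
Dct: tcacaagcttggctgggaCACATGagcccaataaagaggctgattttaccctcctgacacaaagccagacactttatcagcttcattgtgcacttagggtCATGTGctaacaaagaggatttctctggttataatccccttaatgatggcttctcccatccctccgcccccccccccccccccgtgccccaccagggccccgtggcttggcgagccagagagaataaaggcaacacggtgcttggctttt
Tyr: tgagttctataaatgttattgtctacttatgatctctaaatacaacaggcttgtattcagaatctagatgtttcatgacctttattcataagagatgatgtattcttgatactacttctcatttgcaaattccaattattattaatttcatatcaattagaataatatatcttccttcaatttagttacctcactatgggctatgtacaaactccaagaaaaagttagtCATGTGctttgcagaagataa
The first base of the match lies at -46 in Tyrp1, -13 in Slc24a5, -232 and -150 in Dct and -21 in Tyr, counted from the start site. On deposited TPM the 4 genes printed here were all called lower. Oca2 and Trpm1, whose windows are not printed but also held the motif, were not called. A match is a description of the letters and not a measured binding site.

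Some facts of the whole table touch every value below. Colq itself, read as a check of the labels, read 4.05, 5.03 and 3.86 TPM in its own group and between 0 and 0.24 TPM in the Vector libraries. The unit, TPM, is a transcript's abundance per length as a part of all transcripts, and holds no depth, so the depth behind a value is unknown. The median log2 fold change (Colq minus Vector) over the 13726 genes with a mean of at least 1 TPM was -0.50, and each fold change is to be read against it. Size factors by the median of ratios bring it to about 0 and are given as the second scale. Fold changes also went with exonic length, from a median of 0.17 under 1500 bases to -0.83 at 6000 bases or more. Removal of the trend on length and GC content is the third scale. The mitochondrial share of TPM was 7.47% to 8.16% in Colq and 3.75% to 5.27% in Vector libraries. Ribosomal protein genes took 21.5% to 22.4% of TPM in Colq and 14.2% to 16.1% in Vector libraries. The Colq tumors lay very close together, with a median SD of 0.094 (log2) over tested genes against 0.102 and 0.155 between the portions of Vector tumors 1 and 2. Over the 10 pigment genes the median SD was 0.029 between Colq tumors, 0.101 and 0.124 between portions, and 0.209 between Vector tumors. Nothing in the labels says that the Colq libraries share a source, and results are also given with the 3 of them averaged and counted as 1 sample.

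On deposited TPM, 7 of the 10 genes were lower in Colq tumors and 0 were higher (limma, Benjamini-Hochberg adjusted p under 0.05 over all tested genes). Tyrp1, Pmel, Slc45a2 and Slc24a5 fell to between 40.3% and 50.7% of their mean level in Vector tumors. Dct fell to 61.5% of it and Gpr143 by about as much, while Tyr, at 87.3%, was lower on this scale and above 0 in log2 fold change on both others. Oca2, Mlana and Trpm1 were not called. The share of all tested genes called lower was 59.6%, and 11.3% were called higher, so 7 of 10 lower is close to the background. The median log2 fold change of the 10 was -0.68, beside -0.50 for all tested genes. After size factors 4 were lower, the same Tyrp1, Pmel, Slc45a2 and Slc24a5, and 3 were higher, Mlana, Tyr and Trpm1, where 25.5% of tested genes were lower and 28.0% higher. The median of the 10 was then -0.12. Directions thus differed among the 10 on that scale. In bulk tumors, fewer pigmented cells and less RNA of a gene per cell cannot be told apart.

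**Figure D1:**
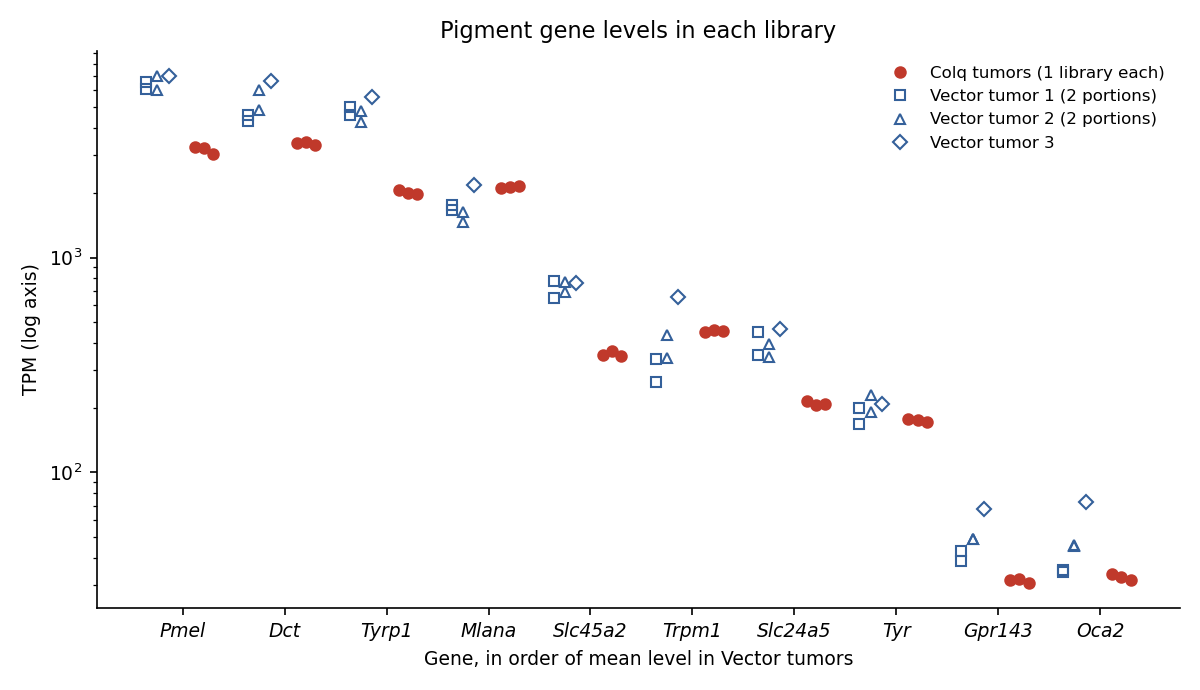
TPM of each of the 10 genes (log axis) in each of the 8 libraries, with filled circles for Colq tumors and open symbols for Vector tumors, 2 symbols of a kind being 2 portions of 1 tumor. Tyrp1, Pmel, Slc45a2, Slc24a5, Dct, Gpr143 and Oca2 lie lower in every Colq library, while Mlana, Trpm1 and Tyr overlap between groups. The libraries of the groups did not overlap for 67.3% of tested genes.

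Among the enzymes, Tyrp1 (ENSMUSG00000005994; chromosome 4, 80834123 to 80851719, plus strand, in GRCm38) measured 2055, 2002 and 1975 TPM in Colq tumors 1 to 3. In Vector it measured 4624 and 5036 TPM in the portions of tumor 1, 4288 and 4796 TPM in those of tumor 2, and 5583 TPM in tumor 3. Every Colq library was below every Vector library. The means were 2011 ± 40.8 and 4985 ± 538 TPM (SD, n = 3 tumors each), and the log2 fold change of -1.30 (SE 0.08; limma, adjusted p = 2.0e-05) was the lowest of the 10. It was -0.73 after size factors (adjusted p = 0.00051) and -1.13 once the length and GC trend was removed (adjusted p = 0.00014), and only 4.1% of tested genes had a lower value on deposited TPM.

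Dct (ENSMUSG00000022129; chromosome 14, 118012790 to 118052244, minus strand) stood at 3403, 3433 and 3358 TPM in Colq libraries. The Vector values were 4598 and 4323 TPM in tumor 1, 4871 and 6049 TPM in tumor 2 and 6662 TPM in tumor 3. The groups did not overlap, but Vector tumors spread by 19.9% of their mean against 1.12% in Colq. Dct fell by 0.68 on the log2 scale (SE 0.13; limma, adjusted p = 0.0025), not far from the median of all genes. Dct was not called after size factors (-0.11, adjusted p = 0.51), once the length and GC trend was taken out (-0.24, adjusted p = 0.12), or where all Colq libraries counted as 1 sample (adjusted p = 0.088).

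Tyr (ENSMUSG00000004651; chromosome 7, 87424771 to 87493512, minus strand), the enzyme of the first step, stood at 176.7, 175.9 and 172.2 TPM in Colq libraries. It stood at 167.5 and 198.3 TPM in the portions of Vector tumor 1, 191.2 and 229.6 TPM in those of tumor 2, and 208.0 TPM in tumor 3. One portion of Vector tumor 1 was the lowest of all 8 libraries, so the libraries overlapped although the tumor averages did not. The log2 fold change of -0.19 (SE 0.07; limma, adjusted p = 0.036) turned to 0.38 after size factors (adjusted p = 0.0014) and to 0.13 with the length and GC trend removed (adjusted p = 0.064). With the first portions alone it was -0.10 (adjusted p = 0.30). The 3 enzymes thus differed from each other: within a library the ratio of Tyr to Tyrp1, which a single factor per library leaves as it is, was 0.087 ± 0.0009 in Colq and 0.040 ± 0.005 in Vector tumors, and that of Dct to Tyrp1 was 1.69 ± 0.03 and 1.11 ± 0.16 (SD, n = 3 each).

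Pmel (ENSMUSG00000025359; chromosome 10, 128704195 to 128720238, plus strand), which encodes the gp100 antigen, stood at 3259.6, 3222 and 3035 TPM in Colq libraries. In Vector it stood at 6095 and 6584 TPM in tumor 1, 6026 and 6977 TPM in tumor 2 and 6996 TPM in tumor 3. The groups were well apart, at 3172 ± 120.2 against 6612 ± 342 TPM (SD, n = 3 each), a ratio of 2.08 between Vector and Colq. Pmel fell by 1.06 on the log2 scale (SE 0.06; limma, adjusted p = 1.6e-05), by 0.48 after size factors (adjusted p = 0.00070) and by 0.85 with the length and GC trend removed (adjusted p = 0.00018). Among all genes it ranked 8 to 10 by TPM in Vector libraries and 44 to 49 in Colq libraries. Reads of the mhgp100 construct that match the mouse gene would be counted in this row, and the table does not tell them from reads of the resident gene. Exons of Cdk2 and Dgka on the opposite strand overlap Pmel in the GRCm38 annotation, and the libraries carry no strand, so such reads cannot be told apart. Cdk2, a cell cycle kinase, was listed at 399.2 to 404.4 TPM in Colq and 519.1 to 817.2 TPM in Vector libraries.

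Mlana (ENSMUSG00000024806; chromosome 19, 29697824 to 29708634, plus strand), the partner of Pmel, was not lower in Colq tumors as Pmel was. It stood at 2109.8, 2139 and 2159 TPM in Colq libraries, and at 1762 and 1669.5 TPM in Vector tumor 1, 1634 and 1458 TPM in tumor 2 and 2168 TPM in tumor 3. Vector tumor 3 was above every Colq library and the other 4 Vector libraries were below them. The log2 fold change of 0.25 (SE 0.12) did not pass (limma, adjusted p = 0.084). It was 0.83 after size factors (adjusted p = 0.0013), 0.39 without Vector replicate 3 (adjusted p = 0.00069) and -0.04 with the length and GC trend removed (adjusted p = 0.82), beside a median of -0.08 for all genes on that scale. Mlana has the shortest exonic length of the 10, 1057 bases, and tested genes under 1500 bases had a median of 0.17. The ratio of Mlana to Tyrp1 was 1.03, 1.07 and 1.09 in the Colq libraries and between 0.30 and 0.39 in the Vector libraries.

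**Figure D2:**
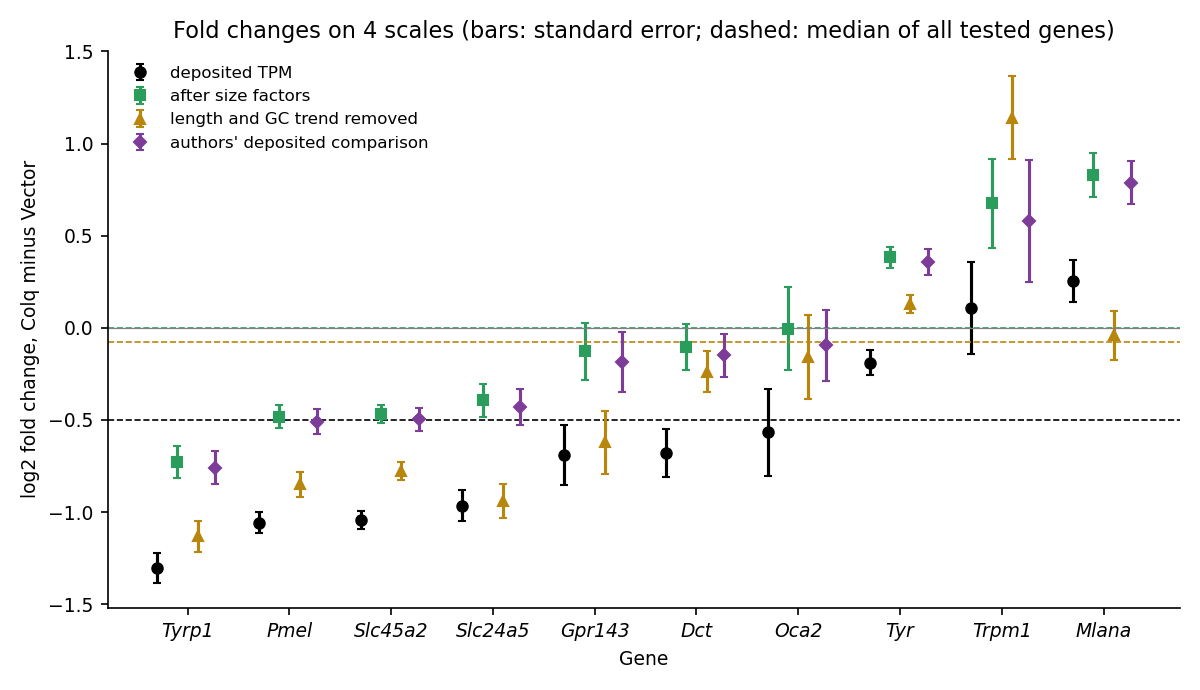
Log2 fold change, Colq minus Vector, with its standard error for each gene on deposited TPM, after size factors, once the length and GC trend was removed, and in the authors' deposited comparison; dashed lines give the median of all tested genes on the first 3 scales. Tyrp1, Pmel, Slc45a2 and Slc24a5 are below 0 on all 4 scales, while Trpm1 is above 0 on all 4, and Tyr and Mlana change sign between scales.

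Of the transporters, Slc45a2 (ENSMUSG00000022243; chromosome 15, 11000721 to 11029233, plus strand) had the smallest adjusted p. It stood at 352.7, 365.0 and 348.8 TPM in Colq libraries, and at 646.0 and 779.0 TPM in Vector tumor 1, 693.2 and 773.1 TPM in tumor 2 and 758.7 TPM in tumor 3. The groups were apart with a narrow spread in both, 355.5 ± 8.49 and 734.8 ± 23.1 TPM (SD, n = 3 each). The log2 fold change was -1.04 (SE 0.05; limma, adjusted p = 1.2e-05), and -0.47 after size factors (adjusted p = 0.00027).

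Slc24a5 (ENSMUSG00000035183; chromosome 2, 125068124 to 125088677, plus strand), a potassium-dependent sodium and calcium exchanger, stood at 213.8, 204.8 and 208.0 TPM in Colq libraries. Its Vector values were 352.6 and 451.1 TPM in tumor 1, 345.5 and 393.5 TPM in tumor 2 and 463.7 TPM in tumor 3. All Colq libraries lay below all Vector libraries, and Slc24a5 fell by 0.96 on the log2 scale (SE 0.09; limma, adjusted p = 5.7e-05), by 0.39 after size factors (adjusted p = 0.0085) and by 0.94 with the length and GC trend removed (adjusted p = 0.00032). An exon of Myef2 on the opposite strand overlaps it, and Myef2 was listed at 55.8 to 57.1 TPM in Colq and 92.6 to 115.9 TPM in Vector libraries. The ratio of Slc45a2 to Slc24a5 overlapped between the groups, at 1.70 ± 0.07 in Colq and 1.80 ± 0.18 in Vector tumors (SD, n = 3 each).

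Oca2 (ENSMUSG00000030450; chromosome 7, 56239760 to 56536518, plus strand), a melanosomal chloride channel, was the lowest of the 10 in Vector tumors by mean level, with values of 35.0 and 34.5 TPM in tumor 1, 45.2 and 45.9 TPM in tumor 2 and 72.6 TPM in tumor 3. The Colq libraries held 33.6, 32.4 and 31.4 TPM, just under Vector tumor 1. The log2 fold change of -0.57 (SE 0.23) did not pass (limma, adjusted p = 0.061), passed without Vector replicate 1 (-0.81, adjusted p = 0.012), and was -0.01 after size factors.

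Gpr143 (ENSMUSG00000025333; chromosome X, 152781921 to 152808646, plus strand) stood at 31.4, 31.9 and 30.7 TPM in Colq libraries. The Vector values were 38.4 and 43.1 TPM in tumor 1, 48.7 and 48.9 TPM in tumor 2 and 67.1 TPM in tumor 3. The groups did not overlap, and Vector tumor 3 was the highest, as for Oca2. Gpr143 fell by 0.69 on the log2 scale (SE 0.16; limma, adjusted p = 0.0067). That call was absent after size factors (-0.13; limma, adjusted p = 0.52) and after quantile normalization (-0.18, adjusted p = 0.37). Gpr143 was also not called where all Colq libraries counted as 1 sample.

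Trpm1 (ENSMUSG00000030523; chromosome 7, 64153835 to 64269775, plus strand), within whose span the annotation places the microRNA gene Mir211 on the same strand, stood at 449.0, 459.6 and 455.2 TPM in Colq libraries. Its Vector values were 263.6 and 337.0 TPM in tumor 1, 437.4 and 341.1 TPM in tumor 2 and 652.2 TPM in tumor 3. Only tumor 3 was above the Colq libraries. The log2 fold change of 0.11 (SE 0.25; limma, adjusted p = 0.72) depended on single Vector tumors: without Vector replicate 3 it was 0.42 (adjusted p = 0.0099), and leaving out Vector replicate 1 gave -0.14 (adjusted p = 0.57). Trpm1 has the largest exonic length of the 10, 14746 bases over all annotated exons, where long genes tended to be lower in Colq. With the trend removed its value was 1.14 (adjusted p = 0.0059), and after size factors 0.68 (adjusted p = 0.049).

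Vector tumor 3 had the highest tumor average for 9 of the 10 genes, with Tyr, highest in Vector tumor 2, as the exception. The coefficient of variation between Vector tumors ran from 3.15% for Slc45a2 to 40.9% for Trpm1, and between Colq tumors from 1.12% for Dct to 3.79% for Pmel. Portions of 1 Vector tumor differed by at most 1.28-fold, for Trpm1 in both tumors and Slc24a5 in tumor 1. All 8 libraries fell apart by group for 7 of the 10 genes, and for 67.3% of tested genes. By tumor average 8 of 10 were apart, beside 74.7% of tested genes. Two-sided exact permutation tests over the tumors on TPM cannot give less than p = 0.1 with 3 against 3. They gave that value for 8 genes, 0.4 for Mlana and 1.0 for Trpm1.

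With the Colq libraries counted as 1 sample, a setting chosen after the data were seen, the spread came from the Vector tumors alone and was taken to hold for the single Colq value. Then 4 of 10 were lower and 0 higher (41.6% and 5.74% of tested genes). The 4 were Slc45a2 (limma, adjusted p = 0.0086), Pmel (0.0089), Tyrp1 (0.0091) and Slc24a5 (0.013). These are also the 4 that kept their direction and call in each of the 21 other settings tried. With the length and GC trend removed, 5 were lower, these 4 and Gpr143 (-0.62, adjusted p = 0.023), and Trpm1 was higher, where 27.6% of tested genes were lower and 19.6% higher.

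The authors' deposited comparison, made with DESeq2 and thus on the authors' own scaling, had 20.4% of 19153 genes lower and 20.1% higher at an adjusted p under 0.05. In the authors' deposited table the same 4 genes were lower, Tyrp1 (log2 fold change -0.76, adjusted p = 1.9e-16), Pmel (-0.51, adjusted p = 3.0e-13), Slc45a2 (-0.50, adjusted p = 1.6e-14) and Slc24a5 (-0.43, adjusted p = 4.7e-05). Mlana (0.79, adjusted p = 8.3e-11) and Tyr (0.36, adjusted p = 3.3e-06) were higher there. The authors' deposited table called neither Trpm1 (0.58, adjusted p = 0.16) nor Gpr143 (-0.18, adjusted p = 0.40), Dct (-0.15, adjusted p = 0.33) or Oca2 (-0.09, adjusted p = 0.76). Which libraries entered it and how portions were handled is not stated in the labels or the header, and it rests on the same tumors.

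The 10 genes together took 1.21%, 1.21% and 1.18% of TPM in Colq tumors 1 to 3, against 1.91%, 1.99% and 2.37% in Vector tumors 1, 2 and 3. The means were 1.20 ± 0.02% and 2.09 ± 0.25% (SD, n = 3 each), and the groups did not overlap. A single factor per tumor leaves this share as it is. The summed TPM was also divided by the size factors and set over a fixed total. It then stood at 1.44% to 1.47% of that total in Colq and 1.59% to 1.91% in Vector tumors. The group difference was -0.24 on that scale, which is not a share, and -0.89 percentage points for the share. The make-up of the sum of the 10 genes differed too, on TPM with the length and GC trend left in. With that trend removed, the log2 fold change was -0.04 for Mlana, 1.14 for Trpm1, -1.13 for Tyrp1 and -0.85 for Pmel. Mlana made up 17.8 ± 0.45% of it in Colq and 8.66 ± 0.76% in Vector tumors, and Trpm1 3.80 ± 0.08% and 2.10 ± 0.60%. Tyrp1 made up 16.8 ± 0.21% and 24.0 ± 1.29%, and Pmel 26.5 ± 0.62% and 31.9 ± 2.01% (SD, n = 3 each). Dct, at 28.4 ± 0.19% and 26.4 ± 2.56%, had overlapping tumors. In order of level per length, Vector tumors had Pmel, Dct, Tyrp1 and Mlana first and Colq tumors Dct, Pmel, Mlana and Tyrp1. Within each of the 5 Vector libraries Pmel was above Dct, although their ranges over the libraries overlapped. Dct was below Tyrp1 in both portions of Vector tumor 1 and above it in tumors 2 and 3, so the order of Dct and Tyrp1 is not settled. At the other end Gpr143 and Oca2 were at 52.2 ± 13.5 and 50.9 ± 19.5 TPM in Vector and at 31.3 ± 0.64 and 32.5 ± 1.13 TPM in Colq tumors (SD, n = 3 each).

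**Figure D3:**
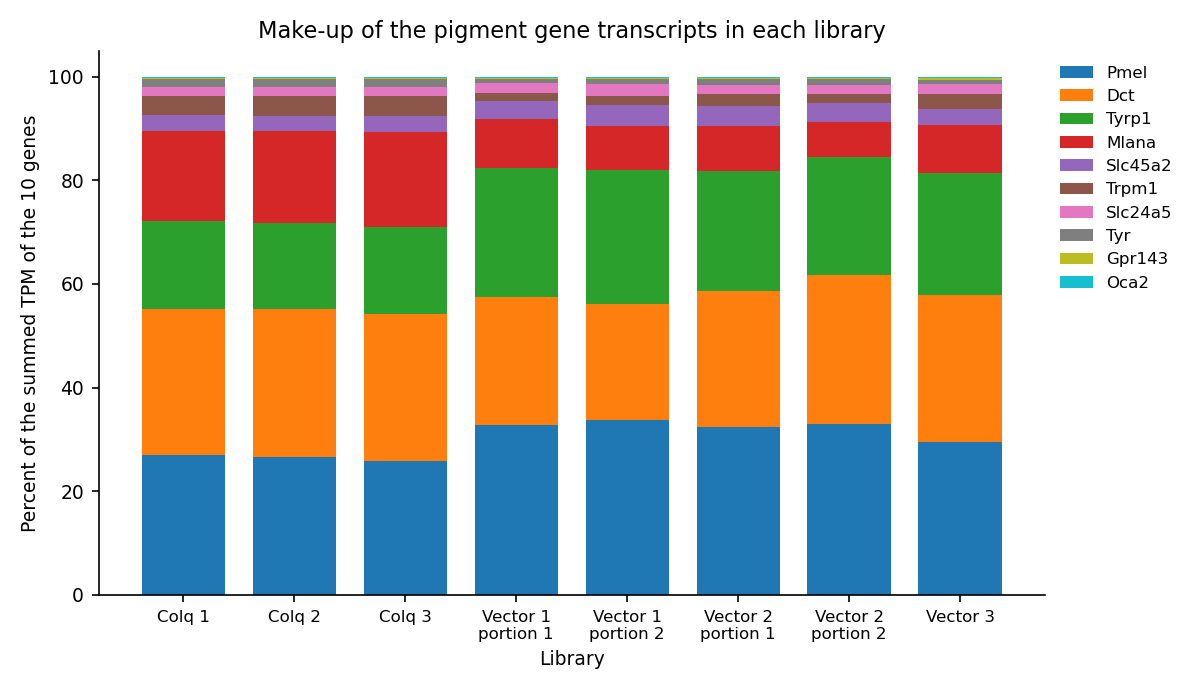
Percent of the summed TPM of the 10 genes taken by each gene, as stacked bars, in each of the 8 libraries. The Mlana section averages 17.8% of the sum in Colq tumors against 8.66% in Vector, and the Tyrp1 section 16.8% against 24.0%.

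Among the regulators of these genes, Mitf, the melanocyte master regulator, was present at 106.4 to 117.9 TPM in Colq and 247.9 to 360.8 TPM in Vector libraries, and fell by 1.46 on the log2 scale (SE 0.10; limma, adjusted p = 2.5e-05). Sox10, a neural crest factor that activates Mitf, stood at 143.7 to 158.4 and 345.4 to 414.6 TPM and fell by 1.33 (SE 0.06; limma, adjusted p = 1.1e-05). On the scaling of the authors' deposited comparison both falls were smaller, with log2 fold changes of -0.93 for Mitf and -0.79 for Sox10. Pax3 (-0.89), the melanocortin receptor gene Mc1r (-1.04) and Tfap2a (-0.97) were lower too. Of 12 genes in the list of regulators and receptors 11 were in the table and 10 tested, of which 7 were lower and 1 higher, beside 59.6% and 11.3% of all tested genes, with a median of -0.93 beside -0.50. The gene that was higher was Tfec (0.79, adjusted p = 0.0079), a relative of Mitf that macrophages also express, and Ednrb (0.23) and Pomc (0.38) were not called. After size factors 6 were lower and 2 higher (median -0.37), beside 25.5% and 28.0% of tested genes, and once the length and GC trend was removed 5 and 1, beside 27.6% and 19.6%, Pax3 being no longer called there (-0.24, adjusted p = 0.084).

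Against Sox10 in the same library, Tyrp1 overlapped between groups, at ratios of 12.6 to 13.7 in Colq and 11.6 to 15.4 in Vector libraries. Mlana stood at 13.5 to 15.0 times Sox10 in Colq and 3.52 to 6.00 times in Vector libraries. Pmel was at 21.1 ± 0.71 and 17.5 ± 1.75 times Sox10 (SD, n = 3 each), the Colq tumors being higher. Against Mitf, Tyrp1 was at 17.99 ± 0.56 and 15.99 ± 0.57 and Mlana at 19.1 ± 1.20 and 5.77 ± 0.32 (SD, n = 3 each). Both ratios to Mitf were higher in every Colq tumor than in any Vector tumor. The length and GC trend was not removed from the ratios to Sox10 and Mitf.

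**Figure D4:**
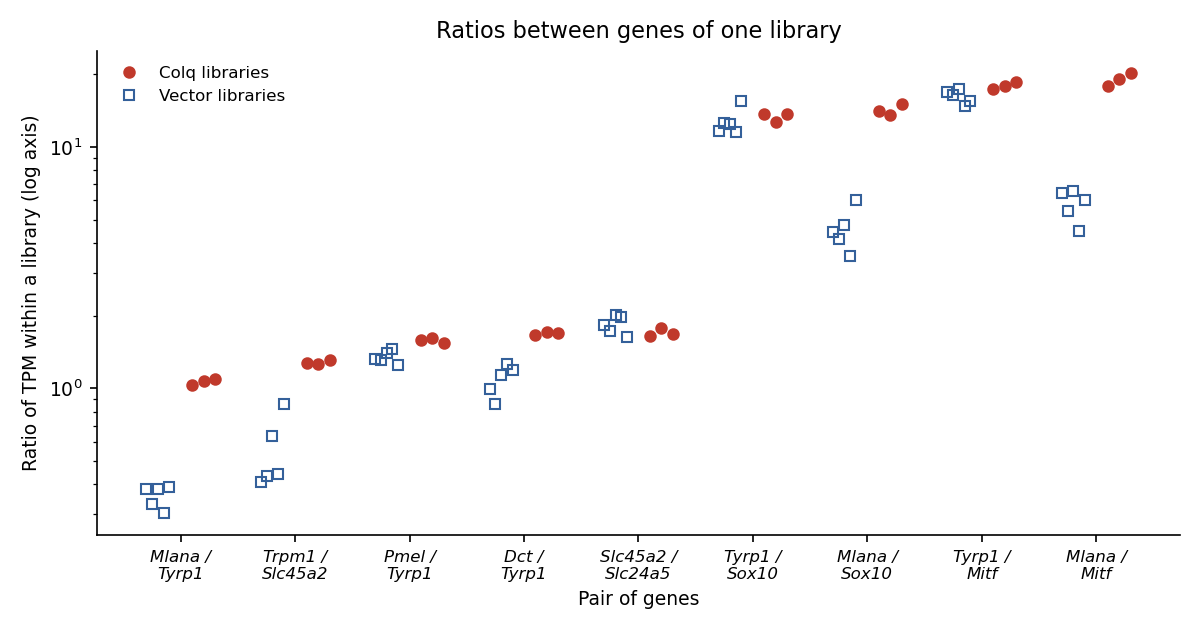
Ratio of the TPM of 2 genes within a library (log axis) for 9 pairs, with filled circles for the 3 Colq libraries and open squares for the 5 Vector libraries. Mlana stands higher in Colq libraries against Tyrp1, Sox10 and Mitf, while Slc45a2 to Slc24a5 and Tyrp1 to Sox10 overlap.

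The wider pigment machinery was read from lists chosen with earlier results of these data known. Melanosome biogenesis genes, which encode the sorting complexes that bring cargo to the organelle, had 13 lower and 4 higher of 22 (median -0.41), beside 59.6% lower and 11.3% higher over all tested genes. After size factors 6 were lower and 9 higher, beside 25.5% and 28.0%. Of the AP-3 subunits in the list, Ap3d1 (-1.17), Ap3b1 (-1.12) and Ap3m1 (-1.07) were lower on deposited TPM, while Ap3s1 (0.30, adjusted p = 0.0079) was higher. Vps33a (-0.80) and Lyst (-1.65), the gene of the beige coat color, were lower. The other genes of the list called higher were Bloc1s1 (0.70), Rab38 (0.48) and Bloc1s2 (0.25). Transport genes had 7 lower and 1 higher, Rab17 (0.48), of 9 tested (median -0.68), beside the same 59.6% and 11.3%, with Myrip under the filter. They included the motor Myo5a at 76.9 ± 2.84 against 196.3 ± 44.5 TPM and its adaptor Mlph at 79.7 ± 1.20 against 180.4 ± 22.4 TPM (SD, n = 3 each). The log2 fold changes were -1.31 for Myo5a, -1.16 for Mlph, -1.20 for Dctn1, -1.08 for Kif5b and -0.68 for Rab1a, the last not called after size factors (-0.11, adjusted p = 0.15). After size factors 4 of the 9 were lower and 2 higher, beside 25.5% and 28.0% of tested genes.

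Other melanosome proteins had 8 lower and 0 higher of 10 tested (median -0.77), beside 59.6% and 11.3% of tested genes. After size factors 4 were lower and 2 higher, beside 25.5% and 28.0%. Atp7a, which delivers copper to tyrosinase, stood at 7.60 ± 0.37 TPM in Colq tumors against 30.0 ± 4.47 TPM in Vector (SD, n = 3 each), with a log2 fold change of -1.81. Gpnmb, a relative of Pmel that macrophages also express, stood at 1117 ± 42.5 and 2284 ± 199 TPM (SD, n = 3 each; -1.03). Slc24a4 (-1.38), Slc36a1 (-1.05) and Tspan10 (-0.85) were lower too, the last not after size factors (-0.27, adjusted p = 0.14). Among genes outside pigment that MITF is known to bind, 5 were lower and 1 higher of 7 tested (median -0.67), near the 59.6% and 11.3% of all tested genes. After size factors 1 was lower and 1 higher, beside 25.5% and 28.0%. Dicer1 (-1.44), Met (-1.09), Ppargc1a (-0.76) and Tbx2 (-0.66) were lower on deposited TPM. Of these, Met, Ppargc1a and Tbx2 were not called after size factors (adjusted p = 0.052, 0.24 and 0.42). Cdk2 (-0.67) was the other gene of the list lower on deposited TPM. Its exons overlap those of Pmel, and reads of that overlap cannot be told apart. Bcl2a1a (1.66), which myeloid cells also express, was higher, and its reads may be shared with near-identical Bcl2a1 copies.

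**Figure D5:**
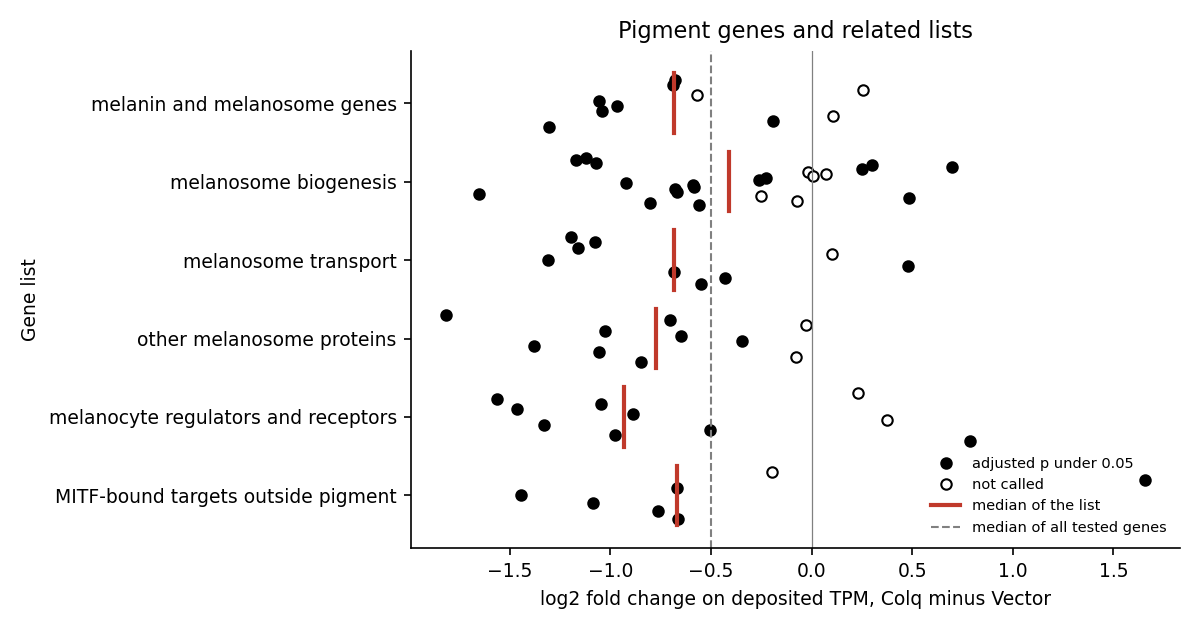
Log2 fold change on deposited TPM, Colq minus Vector, of each tested gene in the 10 melanin and melanosome genes and in 5 related lists, filled where the adjusted p is under 0.05. Short lines give list medians, from -0.93 for regulators to -0.41 for biogenesis, beside the dashed median of all tested genes at -0.50.

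Markers of other cells differed between the same tumors. Summed TPM of 12 skeletal muscle markers was 968.0 to 985.3 in Colq and 36.7 to 182.4 in Vector libraries, of 10 macrophage markers 1592 to 1641 and 463.9 to 1160.2, of 8 fibroblast markers 392.5 to 424.5 and 172.1 to 336.4, and of 8 T cell markers 41.5 to 47.7 and 16.5 to 34.9. Endothelial markers (6 genes) summed to 43.9 to 50.8 and 82.3 to 118.0 TPM, and hair follicle and Schwann cell markers (8 genes) to 156.7 to 169.9 and 205.2 to 274.3 TPM. The sums do not stand for each member. For the counts of single genes, the background over all tested genes was 11.3% higher and 59.6% lower on deposited TPM. After size factors it was 28.0% higher and 25.5% lower. Over single genes on deposited TPM, skeletal muscle had 12 higher of 12 tested, and macrophage 3 higher and 0 lower of 10, with Lyz2 (2.25) making up 53.2% to 54.6% of the macrophage sum in Colq and 19.0% to 36.1% in Vector libraries. Fibroblast markers had 5 higher and 2 lower of 8, the lower ones being Col1a1 (-0.91) and Col1a2 (-0.49), T cell markers 4 higher and 0 lower of 8, endothelial markers 0 higher and 5 lower of 5, and hair follicle and Schwann cell markers 1 higher and 2 lower of 4. After size factors macrophage markers had 9 higher and 0 lower, fibroblast markers 6 and 1, T cell markers 6 and 0, endothelial markers 0 and 4, and hair follicle and Schwann cell markers 1 and 0. The sums of the 10 keratinocyte markers overlapped, at 86.5 to 103.8 and 4.45 to 320.4 TPM, with 7 higher and 0 lower of 9 tested, and 6 and 0 after size factors. No marker of these lists was at 0 in every library. The part of these cells, and of the mitochondrial and ribosomal protein shares, in the pigment gene differences was not tested.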

How the data were processed

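RNA-seq of polyadenylated RNA, in libraries without strand, was analysed for 8 libraries of 6 tumors. The authors deposited log2(TPM + 1) per gene, as the values show, made with RSEM on mm39, per the submitters' processing notes; the aligner and tool versions are not given in the sources that were used. The authors' deposited comparison from DESeq2 holds, per the file headers, normalized signal averaged over libraries, a log2 fold change with its standard error, a Wald score and p-values, and its IDs matched symbols for 26581 of 27664 genes (GENCODE M21). Receptor measures were not used here.

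Groups, tumors and portions came from the titles. TPM was recovered by inverting the log. Portions were averaged on the log2 scale for the fit and as TPM for levels. The 13726 genes that averaged at least 1 TPM were tested with limma 3.58.1 (R 4.3.3; lmFit, eBayes with trend), Benjamini-Hochberg adjusted, checked on simulated data. Exonic length and GC content came from GENCODE M21 (GRCm38, not the authors' build) for 96.2% of tested genes, and their trend was removed by loess (span 0.5). The members, gene lists and tests were chosen with earlier results of these data known. Named genes were all members and, from each related list, up to 5 called genes by smallest p, with Mitf, Sox10, Pax3 and Mc1r. Cdk2 and Myef2 were added for their overlap with members. Ap3s1, Bloc1s1, Bloc1s2, Rab38, Rab17, Tfec, Ednrb, Pomc, Lyz2, Col1a1 and Col1a2, and the counts of single marker genes, were added after their values were seen. Alternatives changed the pseudocount, filter, scaling, handling of portions, replicate block and libraries included. That tumors are separate animals is not stated. The limma p-values set the gap between groups against a spread pooled within groups, and hold for these samples only. Figures used Python 3.11.15 and matplotlib 3.10.9.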

Additional observations from a re-analysis of the deposited data

How the results depend on the processing

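Tyrp1, Pmel, Slc45a2 and Slc24a5 kept their direction and call in all 21 alternatives. Tyr turned positive after size factors (0.38), quantile normalization (0.025), rescaling of TPM without mitochondrial, immunoglobulin, haemoglobin and ribosomal protein genes (0.005) and length and GC removal (0.13), and missed the threshold in 10 further settings. Over all genes, 1556 of 13726 were higher and 8181 lower (11.3% and 59.6%). Size factors gave 3843 and 3505 (28.0% and 25.5%), and quantile normalization 3142 and 4267. Length and GC removal, on fewer genes (13211), gave 2587 and 3652 (19.6% and 27.6%). The rescaling gave 2000 and 6737 of 13536, and no filter 1652 and 7941 of 28918. All 8 libraries as independent gave 1453 and 8108. Over all genes, leaving out each tumor gave 1310 to 1549 higher and 7484 to 8216 lower. The counts of pigment and related genes below are to be read against these. The Colq libraries as 1 sample, with fewer samples, gave 788 higher. Of the 10 pigment genes, 3 were higher and 4 lower after size factors, 1 higher after the rescaling, 1 after length and GC removal, 1 with all 8 libraries as independent, and 4 lower with the Colq libraries as 1 sample. Leaving out each tumor gave 0 to 2 higher, the 2 being Mlana and Trpm1 without Vector replicate 3, and 6 to 8 lower. Of the 58 related genes tested, 7 were higher and 40 lower; 4 were higher without the filter, 16 higher and 21 lower after size factors, 13 higher after quantile normalization, 21 lower after length and GC removal, and 2 higher and 24 lower with the Colq libraries as 1 sample. The summed share of TPM differed by -0.89 percentage points. The sum after size factors, set over a fixed total and so not a share, differed by -0.24. Same-numbered tumors did not deviate together (r = 0.030, 0.007 and 0.044) and share only a number; with the replicate block 1526 genes were higher and 7928 lower, and of the pigment genes Tyr lost its call (adjusted p = 0.064). Other causes were not tested. Depth is unknown from TPM, and the number of tumors, 3 a group, limits the precision.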
